A study of Drosophila melanogaster with 62 samples.

Results

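The genes that make glycerol 3-phosphate, turn it into stored fat or hold that fat in droplets were followed, by 6 named members, through the fat body transcriptomes of Drosophila melanogaster larvae reared on ordinary or sugar-rich food. The members were chosen by name, with earlier results of these data known. They were looked up by identifier in the deposited expression table, and all 6 were found among its 14659 genes. Gpdh encodes the cytosolic glycerol-3-phosphate dehydrogenase. CG8256, listed in the table as Gpo-1, encodes the mitochondrial glycerol-3-phosphate dehydrogenase. CG31991, listed as mdy (midway), encodes the diacylglycerol acyltransferase DGAT1. Lsd-1 and Lsd-2 encode the perilipins of the fly, and CG5295, listed as bmm (brummer), encodes a triglyceride lipase.

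The larval fat body is the fly's counterpart of liver and adipose tissue, where dietary sugar is turned into triglyceride. Cytosolic Gpdh reduces the glycolytic intermediate dihydroxyacetone phosphate to glycerol 3-phosphate, the backbone of triglyceride, and the mitochondrial enzyme oxidises it back, so that the pair form a shuttle carrying electrons into mitochondria. DGAT1 adds the last fatty acid, perilipins coat the droplet surface and govern access of lipases to it, and brummer, the homologue of the mammalian adipose triglyceride lipase, releases fatty acids from the droplet.

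The table held 61 RNA-seq libraries in 18 groups from 4 experiments, each from fat bodies of wandering larvae at the end of the last larval stage. Every larva, controls included, carried UAS-Dcr2 on the X chromosome, which strengthens RNA interference (RNAi), and a GAL4 driver active in the fat body. In males carrying cg-GAL4, Tfb1 RNAi (Vienna stock 12580) and control (w1118 stock) larvae were each reared on food with 1.0 M or 0.15 M sucrose, with 3 libraries a group, and their fat bodies were dissected by hand. In females carrying cg-GAL4, control (w1118) larvae were reared on 0.7 M or 0.15 M sucrose, with 3 libraries a group. In females carrying r4-GAL4, control (w1118) larvae were reared on 0.15, 0.3, 0.7 or 1.0 M sucrose, with 3 libraries a group. In a second set of r4-GAL4 females, FOXO RNAi (stock 106097), p53 RNAi (stock 103001), Stat92E RNAi (stock 106980) and control (stock 60100) larvae were reared on 0.7 M or 0.15 M sucrose, with 4 libraries a group except for p53 RNAi on 0.15 M, where 3 of the 4 labelled samples had a column. The column headings of the male libraries name r4 where the labels name cg, and the labels are followed here. The 3 p53 RNAi columns on 0.15 M are headed in the style of the male columns, unlike the other columns of their experiment. Any part of this in the p53 RNAi results was not tested. All female fat bodies were floated, that is, freed by shearing and separated in a centrifuge. Each RNAi group stands for 1 RNAi stock, and cg-GAL4 is active in blood cells as well as in the fat body.

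Values are FPKM (fragments per kilobase of transcript scaled to the number of mapped fragments) as deposited. Within each experiment the same number of genes, give or take 1, reached a value of 1 in each library, as if the values had been scaled to that end (scaled FPKM here), so levels are set side by side within an experiment only. Summed values ran from 25090 to 76930 per library, and a value of 1 stood for about 4.32 to 22.9 fragments per kilobase of transcript, estimated from the lowest values of each library. The 7 fat body marker genes (larval serum proteins, fat body proteins and apolipophorin) were found in every group, with summed levels of 1620 to 14950 per library. Markers of gut, salivary gland, hemocytes and muscle were present too and moved with some of the groups, as given beside the results. The targeted gene averaged 73.4% of control on 1.0 M and 57% on 0.15 M for Tfb1, 65% on 0.7 M and 56.9% on 0.15 M for foxo, 62.2% and 71.6% for p53, and 23.8% and 16.5% for Stat92E, and of these 8 comparisons only foxo on 0.7 M had libraries that overlapped those of its control. Means were under 1 except for Stat92E in controls on 0.15 M (2.68), and p53 averaged 0.0904 against 0.126 in controls on that food. The percentages for such low values rest on few reads. Exact two-sided permutation p was 0.1 for Tfb1 on both foods, 0.17 for foxo on 0.7 M and 0.057 for p53 on 0.15 M. It was 0.029 for the others. Among the r4 60100 females, the library second in column order was the one least like its group mates in 7 of the 8 groups. In the gene annotation used here, Gpdh overlaps a long noncoding RNA gene on the opposite strand by 697 bases. Lsd-1 overlaps CG10214 by 144 bases there. That annotation need not be the one behind the deposited values. Without strand information, reads from overlapping genes cannot be told apart.

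The 6 genes spanned a wide range of levels. Ranked by mean level among all genes detected in an experiment, Lsd-1 stood 122nd to 212th and Lsd-2 228th to 661st, out of 8320 to 10594 genes. Gpdh stood 545th to 947th, CG5295 960th to 2772nd and CG31991 1777th to 2382nd. CG8256 was the lowest in 3 of the 4 experiments, ranking 3775th in the cg females, 5982nd in the cg males, 2469th in the r4 60100 females and 2035th in the r4 w1118 females. A gene entered the tests across all genes when its mean reached 1 over the libraries of an experiment. CG8256 missed this in both cg experiments, at 0.412 in females and 0.285 in males, and CG5295 missed it in the r4 60100 females, at 0.841. CG8256 passed in the r4 w1118 females, at 1.1, and in the r4 60100 females, at 1.04, only through the groups where it was high. CG31991 too averaged under 1 in some group of each experiment and passed, at 1.11 to 1.68, with the help of its higher groups. A test on a gene let in by the group it then finds high is not a fair one, so p-values of CG8256 and CG31991, and the counts and medians over the 6 members, come from a second fit over every gene detected in the experiment, with no filter. There all 6 were tested, and CG8256 in the cg experiments and CG5295 in the r4 60100 females were tested on their own as well.

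**Figure D1:**
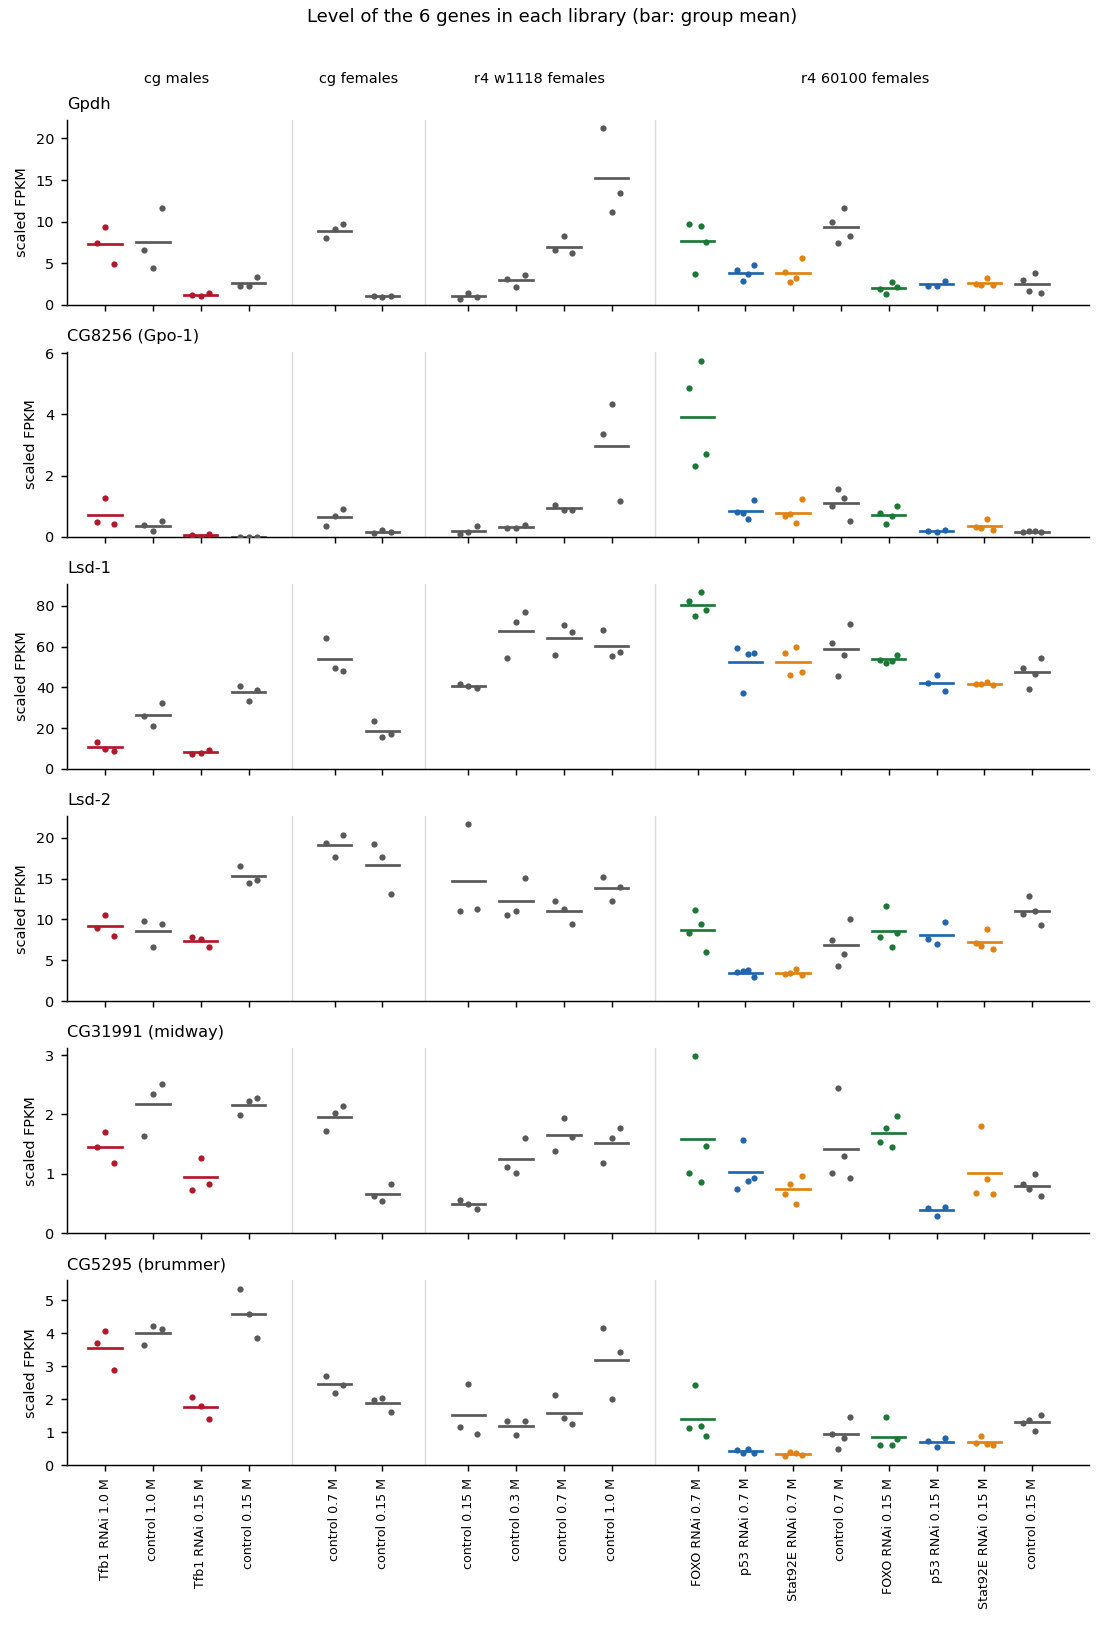
Level of each of the 6 genes (scaled FPKM, linear axis from 0) in all 61 libraries, by group; points are libraries, bars are group means, and vertical lines part the 4 experiments. Mean Gpdh and mean CG8256 were higher on high sugar in the controls of all 4 experiments, and CG8256 reached 2.32 to 5.75 in the FOXO RNAi libraries on 0.7 M.

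High sugar was compared with 0.15 M sucrose in the control larvae of each experiment, which asks how these genes follow the diet. Gpdh rose in all 6 control comparisons, by 0.94 to 2.95 on the log2 scale. The comparisons in r4 w1118 females share the same 0.15 M libraries, so they are not independent of each other. CG31991 and Lsd-1 rose in the females of the 2 w1118 experiments, whereas Lsd-2 fell in cg males and in r4 60100 females. In the fit with no filter (limma, adjusted p under 0.05), 3 of the 6 members passed in cg females, all of them higher on 0.7 M, where 16.7% of 8320 detected genes passed in either direction. In r4 w1118 females 3 of 6 passed on 0.3 M (5.94% of 8334 genes), 3 on 0.7 M (9.92%) and 4 on 1.0 M (10.2%), all of them higher than on 0.15 M. In r4 60100 females 2 of 6 were higher and 1 was lower on 0.7 M (25.6% of 9851 genes), and in cg males 1 of 6 was higher and 1 was lower on 1.0 M (8.90% of 10594 genes). Among genes that reached the filter the shares were larger, at 39.7% in cg females, 31.1% in r4 60100 females and 28.3% in cg males. In r4 w1118 females they were 7.72%, 14.3% and 17.2% on 0.3, 0.7 and 1.0 M. The members' median change was 0.66 in cg females against -0.02 for all detected genes, and -0.08 in cg males against 0.01. It was 0.37, 0.67 and 0.75 on 0.3, 0.7 and 1.0 M in r4 w1118 females against -0.03, -0.03 and -0.02, and 0.34 in r4 60100 females against -0.02. Genes that reached the filter had medians of 0.15 in cg females, -0.13 in cg males and 0.11 in r4 60100 females. In r4 w1118 females theirs were 0.15, 0.15 and 0.08 on 0.3, 0.7 and 1.0 M. Changes are differences of mean log2(scaled FPKM + 1), which understate the change of genes near or under 1, and the p-values measure the spread between libraries, since the labels do not say which libraries came from separate cultures.

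Gpdh, the cytosolic dehydrogenase, had 7.99, 9.07 and 9.71 in cg females on 0.7 M, against 1.11, 0.938 and 1.04 on 0.15 M. The groups lay far apart, with means of 8.92 ± 0.869 on 0.7 M and 1.03 ± 0.0862 on 0.15 M (SD, n = 3 each), a change of 2.29 ± 0.10 (SE, adjusted p = 7.9e-05, limma). In whole tissue, fewer cells of a type and less RNA per cell cannot be told apart, here or in any later comparison. In cg males Gpdh had 6.57, 4.39 and 11.6 in controls on 1.0 M, against 2.23, 2.22 and 3.3 on 0.15 M, a change of 1.17 ± 0.29 (adjusted p = 0.013). Every male library on 1.0 M was above every one on 0.15 M, though the spread on 1.0 M was wide. In r4 60100 control females it had 9.95, 7.48, 11.6 and 8.28 on 0.7 M, against 3.04, 1.65, 3.78 and 1.39 on 0.15 M, a change of 1.62 ± 0.23 (adjusted p = 2.2e-05) with no overlap.

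Markers of other tissues moved with the diet in some of these comparisons. In cg females the 6 hemocyte markers summed to 0.282 to 0.619 per library on 0.7 M, with 2 of them at 0 in all libraries, and to 9.15 to 13.3 on 0.15 M. The 6 salivary gland markers summed to 5.41 to 18.5 and 33.3 to 590.4, and the 7 gut markers to 1.48 to 1.85 and 4.58 to 64.1. The 7 fat body markers summed to 10470 to 12240 on 0.7 M and 5269 to 7162 on 0.15 M. In cg male controls the fat body markers went the other way, with sums of 2813 to 4418 on 1.0 M and 9333 to 11010 on 0.15 M, and the hemocyte markers summed to 0.846 to 1.34 and 1.81 to 2.33. In r4 60100 controls the 8 muscle markers summed to 20.1 to 68.2 on 0.7 M and 9.34 to 15.96 on 0.15 M, and the fat body markers to 9397 to 13050 and 13870 to 14900. The part of these differences in the changes of the 6 genes was not tested.

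CG8256, the mitochondrial dehydrogenase, was low on 0.15 M in every experiment. In r4 60100 controls it had 1.0, 1.58, 1.27 and 0.529 on 0.7 M, against 0.169, 0.178, 0.193 and 0.157 on 0.15 M. The groups did not overlap and the gene rose by 0.81 ± 0.18 (adjusted p = 0.0028 over all detected genes). The values on 0.15 M rest on about 4.24 to 7.82 fragments per library, so the size of this change is set by few reads, and it was 2.04 with a pseudocount of 0.1 in place of 1. In cg females it had 0.346, 0.693 and 0.916 on 0.7 M, against 0.135, 0.228 and 0.152 on 0.15 M. In cg male controls it had 0.374, 0.194 and 0.531 on 1.0 M and was listed at 0 in all 3 libraries on 0.15 M. Groups did not overlap in either cg experiment, and the exact two-sided permutation p was 0.1 in both, the smallest that 3 against 3 libraries can give (0.16 after adjustment over the 15 such tests on members under the filter).

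CG31991, the DGAT1 gene, had 1.72, 2.02 and 2.14 in cg females on 0.7 M, against 0.625, 0.546 and 0.825 on 0.15 M. It rose by 0.83 ± 0.09 (adjusted p = 0.0053 over all detected genes), or 1.44 with a pseudocount of 0.1, and the groups did not overlap. In r4 60100 controls it had 1.02, 2.45, 1.3 and 0.937 on 0.7 M, against 0.822, 0.737, 0.99 and 0.633 on 0.15 M. Here a single library, the second on 0.7 M, stood high, the groups overlapped, and the change of 0.40 ± 0.20 did not pass (adjusted p = 0.14). The second library was also the highest for CG31991 with FOXO RNAi (2.98) and p53 RNAi (1.57) on 0.7 M and with Stat92E RNAi on 0.15 M (1.8). In controls and FOXO RNAi on 0.15 M another library was the highest. In male controls the means were the same to 3 digits, 2.17 ± 0.467 on 1.0 M and 2.17 ± 0.152 on 0.15 M (SD, n = 3 each), a difference of -0.01 ± 0.14.

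Lsd-1, the perilipin found on the droplets of adult and larval fat body, had 64.1, 49.4 and 48 in cg females on 0.7 M, against 23.4, 15.6 and 17.2 on 0.15 M. All libraries on 0.7 M lay above those on 0.15 M, and the change was 1.48 ± 0.19 (adjusted p = 0.0018). In r4 60100 controls it had 61.8, 45.6, 56 and 71.2 on 0.7 M, against 49.7, 39.4, 46.4 and 54.3 on 0.15 M, with overlapping groups and a change of 0.29 ± 0.14 (adjusted p = 0.10). That change reached adjusted p = 0.014 when libraries were rescaled by the median ratio over genes (0.43), 0.037 without the second control library on 0.7 M (0.40) and 0.017 without the second library of every group (0.32). In cg male controls Lsd-1 had 26, 21.2 and 32.5 on 1.0 M, against 40.8, 33.3 and 38.6 on 0.15 M. The male groups did not overlap, but the change of -0.50 ± 0.18 did not pass (adjusted p = 0.065), except without the third library on 1.0 M (-0.65, adjusted p = 0.027).

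Lsd-2, the perilipin with broader expression, had 9.76, 6.6 and 9.4 in cg male controls on 1.0 M, against 16.6, 14.5 and 14.8 on 0.15 M. Every library on 1.0 M was lower, and the gene fell by 0.78 ± 0.15 on the log2 scale (adjusted p = 0.0036). In r4 60100 controls it had 7.44, 4.29, 5.8 and 10.1 on 0.7 M, against 10.7, 12.9, 11.0 and 9.38 on 0.15 M, and it fell by 0.65 ± 0.18 (adjusted p = 0.0097). The fourth library on 0.7 M overlapped the 0.15 M group, and the call was lost without the second library on 0.7 M (-0.47, adjusted p = 0.063), without the second library of every group (-0.40, 0.082) and with a fit of these groups alone (0.073). In cg females Lsd-2 averaged 19.1 ± 1.42 on 0.7 M and 16.6 ± 3.18 on 0.15 M (SD, n = 3 each), a difference of 0.20 ± 0.16 (adjusted p = 0.35).

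CG5295, the lipase brummer, passed in none of the control comparisons of high sugar with 0.15 M. In cg females it had 2.71, 2.2 and 2.44 on 0.7 M, against 1.99, 2.05 and 1.62 on 0.15 M, a change of 0.26 ± 0.11 (adjusted p = 0.097). The groups did not overlap, though their edges were close. In cg male controls it averaged 4.0 ± 0.311 on 1.0 M and 4.59 ± 0.747 on 0.15 M, and in r4 60100 controls 0.934 ± 0.406 on 0.7 M (n = 4) and 1.3 ± 0.197 on 0.15 M (n = 4), with overlapping libraries in both.

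**Figure D2:**
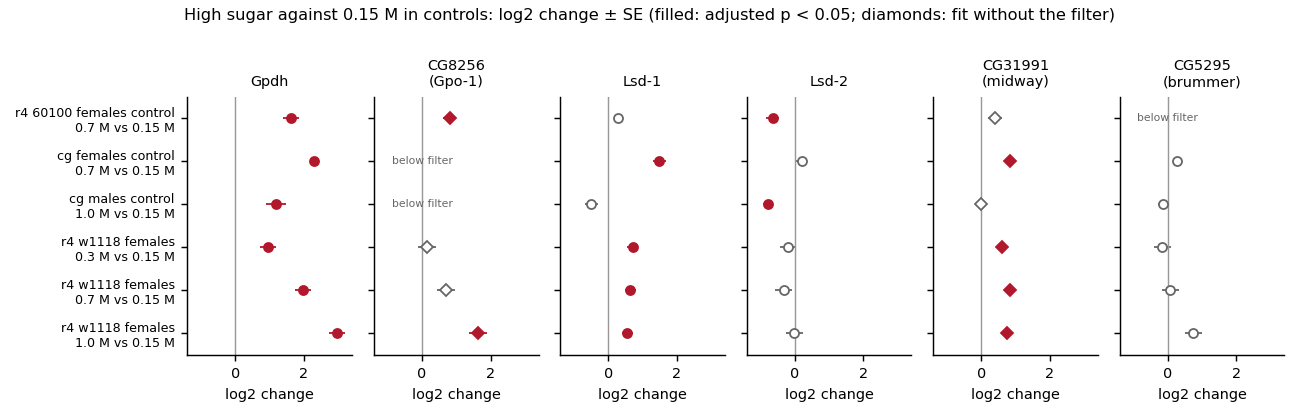
Log2 change of each gene on high sugar relative to 0.15 M sucrose in the control larvae of each experiment (limma, ± SE); filled points passed adjusted p under 0.05 and "below filter" marks a gene that was tested on its own, and diamonds (CG8256 and CG31991) are from the fit with no filter. Gpdh passed in all 6 comparisons, from 0.94 to 2.95, and Lsd-2 passed only in r4 60100 females (-0.65) and cg males (-0.78).

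The r4 w1118 females gave a series of 4 sucrose levels, and in it the 6 genes followed different courses. Gpdh and CG8256 kept climbing to 1.0 M, CG31991 and Lsd-1 were already high on 0.3 M, CG5295 was highest on 1.0 M, and Lsd-2 stayed within its spread. Of the 6 genes, 3 passed a test for a linear trend with sucrose in the fit with no filter, all upward. The share was 9.14% of all detected genes in either direction (17.5% of those that reached the filter). The members' median slope was 0.83 per 1 M, against -0.02 for all detected genes and 0.05 for those that reached the filter.

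Gpdh had 0.747, 1.43 and 0.964 on 0.15 M, 3.15, 2.09 and 3.62 on 0.3 M, 6.57, 8.21 and 6.22 on 0.7 M, and 21.2, 11.2 and 13.4 on 1.0 M. No library of any diet overlapped those of the next. The change from 0.15 M was 0.94 ± 0.23 on 0.3 M (adjusted p = 0.038), 1.97 ± 0.23 on 0.7 M (0.00042) and 2.95 ± 0.23 on 1.0 M (2.9e-05), and the slope was 3.27 ± 0.25 per 1 M (1.8e-05).

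CG8256 had 0.0886, 0.16 and 0.354 on 0.15 M, 0.298, 0.282 and 0.39 on 0.3 M, 1.04, 0.873 and 0.882 on 0.7 M, and 3.35, 4.34 and 1.18 on 1.0 M. The 2 lowest diets overlapped, the 2 highest did not, and 1 library on 1.0 M was close to the 0.7 M group. Over all detected genes, it rose by 1.63 ± 0.27 on 1.0 M (adjusted p = 0.0053), with a slope of 1.86 ± 0.28 per 1 M (0.0037), and these were 3.26 and 3.75 with a pseudocount of 0.1 in place of 1. The call on 1.0 M was lost in a fit of the 2 groups alone (0.062). The change of 0.69 ± 0.27 on 0.7 M did not pass (0.13), but did with that pseudocount (1.87, adjusted p = 0.031) and in a fit of the 2 groups alone (0.020). Values on 0.15 M rest on about 1.79 to 8.02 fragments per library and those on 1.0 M on about 38.2 to 93.1.

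CG31991 had 0.551, 0.488 and 0.415 on 0.15 M, 1.11, 1.02 and 1.6 on 0.3 M, 1.39, 1.94 and 1.62 on 0.7 M, and 1.19, 1.6 and 1.78 on 1.0 M. The lowest diet stood apart from the other 3, which overlapped. Over all detected genes, changes were 0.59 ± 0.12 on 0.3 M (adjusted p = 0.029), 0.83 ± 0.12 on 0.7 M (0.0043) and 0.76 ± 0.12 on 1.0 M (0.0055), with a slope of 0.78 ± 0.13 per 1 M (0.0069). With a pseudocount of 0.1 they were 1.18, 1.58, 1.46 and 1.46, and that of Gpdh on 0.3 M was 1.42.

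Lsd-1 had 41.8, 40.6 and 39.7 on 0.15 M, 54.2, 71.8 and 77.1 on 0.3 M, 56, 70.3 and 66.9 on 0.7 M, and 67.9, 55.3 and 57.3 on 1.0 M. It too was lowest on 0.15 M without overlap, while the other 3 diets overlapped. Changes were 0.70 ± 0.16 on 0.3 M (adjusted p = 0.035), 0.64 ± 0.16 on 0.7 M (0.026) and 0.55 ± 0.16 on 1.0 M (0.040), and the linear trend did not pass (0.12). On 0.3 M, the calls of Gpdh, CG31991 and Lsd-1 were lost in a fit of these 2 groups alone (0.097, 0.091 and 0.11). They were also lost without 0.15 M library 1 or 3 or 0.3 M library 3, those of Gpdh and Lsd-1 without 0.3 M library 2, and that of Lsd-1 without 0.15 M library 2. The adjusted p then reached 0.16 for Gpdh (0.82), 0.10 for CG31991 (0.48) and 0.14 for Lsd-1 (0.60, with 0.3 M library 3 left out in each case). The Lsd-1 call was also lost on 0.7 M without any single 0.15 M library or without 0.7 M library 2 or 3 (adjusted p up to 0.11, change 0.58), and on 1.0 M without any single library of either group or in a fit of the groups alone (adjusted p up to 0.14, change 0.46).

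Lsd-2 had 11.0, 21.7 and 11.3 on 0.15 M, 10.6, 11.0 and 15.1 on 0.3 M, 12.3, 11.3 and 9.4 on 0.7 M, and 15.2, 12.3 and 14.0 on 1.0 M. The second library on 0.15 M was the highest of the 12 and every diet overlapped another. The slope was -0.03 ± 0.26 per 1 M (adjusted p = 0.95). CG5295 had 1.15, 2.46 and 0.953 on 0.15 M, 1.35, 0.906 and 1.35 on 0.3 M, 2.12, 1.42 and 1.25 on 0.7 M, and 4.16, 2.02 and 3.42 on 1.0 M. The same second library on 0.15 M was high for this gene, and it overlapped the 1.0 M group. The slope of 0.89 ± 0.26 per 1 M passed with the filter (adjusted p = 0.040), but lost the call in 11 of 16 settings, 9 of them single libraries left out (any but 0.15 M library 2, 0.7 M library 3 and 1.0 M library 2), with adjusted p up to 0.13 and a slope of 0.71 without 1.0 M library 1. On 1.0 M the change of 0.75 ± 0.25 did not pass (0.062), but did without 0.15 M library 2 (1.00, adjusted p = 0.018) or without 1.0 M library 2 (0.97, adjusted p = 0.026). The 7 gut markers summed to 55.3 to 138.7 on 0.15 M, 15.4 to 49 on 0.3 M, 2.20 to 4.40 on 0.7 M and 2.86 to 5.81 on 1.0 M in these libraries, with 2 of the 7 at 0 on 0.7 M and 1 on each other diet. The 8 muscle markers summed to 14.7 to 19.4 on 0.3 M and 4.78 to 8.91 on 0.15 M, and the other 2 diets overlapped 0.15 M. The part of these markers in the courses of the 6 genes was not tested.

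**Figure D3:**
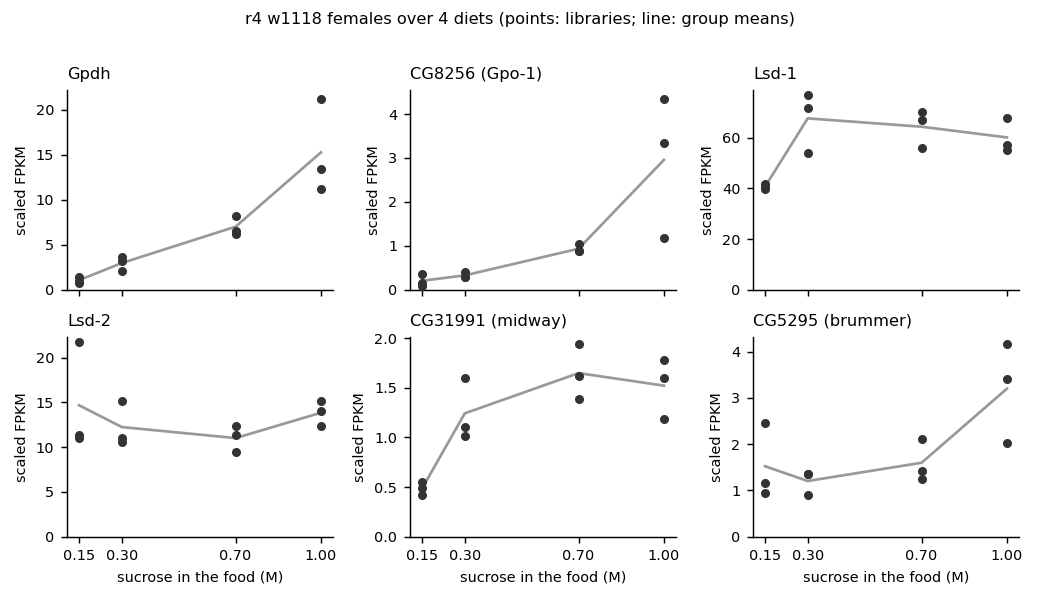
Level of each gene (scaled FPKM, linear axis from 0) against sucrose in the food (M) in r4 w1118 females; points are libraries and lines join group means. Mean Gpdh was 1.05, 2.96, 7.0 and 15.2 on 0.15, 0.3, 0.7 and 1.0 M, while mean Lsd-1 was 40.7, 67.7, 64.4 and 60.1.

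Tfb1 encodes a subunit of the general transcription factor TFIIH, and its RNAi in cg males asks how these genes depend on it on each food. Lsd-1 was lower in Tfb1 RNAi fat bodies on both foods, and on 0.15 M Lsd-2, CG31991 and CG5295 were lower too. In the fit with no filter, 1 of 6 members was lower and none higher on 1.0 M (9.18% of all detected genes, 24.1% of those that reached the filter). Medians were -0.07 for the members, 0.01 for all detected genes and -0.03 for those that reached the filter. On 0.15 M, 4 of 6 were lower and none higher (13.1% and 36.2%), with medians of -0.84 for the members, 0.01 and -0.13.

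Lsd-1 had 13.4, 9.94 and 8.7 in Tfb1 RNAi males on 1.0 M, against 26, 21.2 and 32.5 in controls. On 0.15 M it had 7.4, 7.66 and 9.2 in Tfb1 RNAi males, against 40.8, 33.3 and 38.6 in controls. The groups lay well apart on both foods, and the gene fell by 1.24 ± 0.18 on 1.0 M (adjusted p = 0.00074) and by 2.09 ± 0.18 on 0.15 M (1.1e-05). Lsd-2 had 7.87, 7.62 and 6.64 in Tfb1 RNAi males on 0.15 M, against 16.6, 14.5 and 14.8 in controls, and fell by 0.96 ± 0.15 (0.00059) without overlap. On 1.0 M it had 8.99, 10.6 and 7.93 in Tfb1 RNAi males, against 9.76, 6.6 and 9.4 in controls, a difference of 0.09 ± 0.15 with overlapping groups.

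CG31991 had 0.728, 1.26 and 0.83 in Tfb1 RNAi males on 0.15 M, against 1.99, 2.23 and 2.28 in controls, and fell by 0.72 ± 0.14 (adjusted p = 0.0065 over all detected genes), or by 1.16 with a pseudocount of 0.1. On 1.0 M it averaged 1.45 ± 0.265 in Tfb1 RNAi males and 2.17 ± 0.467 in controls (SD, n = 3 each), a change of -0.37 ± 0.14 that did not pass (0.14). CG5295 had 2.07, 1.8 and 1.4 in Tfb1 RNAi males on 0.15 M, against 5.35, 4.58 and 3.85 in controls, and fell by 1.02 ± 0.14 (0.00022). On 1.0 M it averaged 3.56 ± 0.597 in Tfb1 RNAi males and 4.0 ± 0.311 in controls, with overlap. Both genes lay apart from control on 0.15 M and overlapped it on 1.0 M.

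Gpdh had 1.15, 1.03 and 1.44 in Tfb1 RNAi males on 0.15 M, against 2.23, 2.22 and 3.3 in controls. All 3 RNAi libraries were lower, but the change of -0.69 ± 0.29 did not pass (adjusted p = 0.091), except with a pseudocount of 0.1 (-1.03, adjusted p = 0.040) or in a fit of the 2 groups alone (0.015). On 1.0 M it had 7.42, 9.38 and 4.95 in Tfb1 RNAi males, against 6.57, 4.39 and 11.6 in controls, with a difference of 0.01 ± 0.29. CG8256 had 0.484, 1.26 and 0.406 in Tfb1 RNAi males on 1.0 M, against 0.374, 0.194 and 0.531 in controls. On 0.15 M it was 0.0699, listed at 0 and 0.106 in the RNAi libraries and listed at 0 in all controls. Neither food gave a separation for CG8256 (exact two-sided permutation p = 0.40 on both).

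Within Tfb1 RNAi males, 2 of 6 members were higher on 1.0 M than on 0.15 M with no filter, where 3.90% of all detected genes passed (14.1% of those that reached the filter), and the members' median was 0.51 against 0.01. Gpdh rose by 1.87 ± 0.29 (adjusted p = 0.0017) and CG5295 by 0.72 ± 0.14 (0.0054), each without overlap. CG8256, under the filter, lay at 0.406 to 1.26 on 1.0 M and at 0 to 0.106 on 0.15 M, a difference of 0.66 (exact two-sided permutation p = 0.10, the smallest possible). The diet effect itself differed between Tfb1 RNAi and control males for 1 of 6 members with no filter, Lsd-2, against 2.04% of all detected genes (members' median 0.77, all genes 0.00). With the filter CG5295 passed as well, where 8.41% of genes did and the median over those genes was 0.13. Lsd-2 was 0.27 higher on 1.0 M in Tfb1 RNAi males and 0.78 lower in controls, an interaction of 1.05 ± 0.21 (adjusted p = 0.014). CG5295 was 0.72 higher and 0.15 lower, an interaction of 0.88 ± 0.20 (0.021). The CG5295 interaction was lost with no filter on low values (0.053) and without the third Tfb1 RNAi library on 0.15 M (0.052), the first control library on 1.0 M (0.051) or the first or second Tfb1 RNAi library on 1.0 M (0.055 and 0.059, with an interaction of 0.80 in the last case). The Lsd-1 interaction of 0.85 ± 0.26 did not pass (0.074), but did without the third control library (1.00, adjusted p = 0.033) or the third Tfb1 RNAi library (0.97, adjusted p = 0.036) on 1.0 M. The summed fat body markers were 1620 to 2144 in Tfb1 RNAi males and 2813 to 4418 in controls on 1.0 M, and 4608 to 5336 and 9333 to 11010 on 0.15 M. The hemocyte markers, none of them at 0 in a whole group, summed to 3.11 to 4.70 in Tfb1 RNAi males and 0.846 to 1.34 in controls on 1.0 M, and to 2.57 to 2.80 and 1.81 to 2.33 on 0.15 M. The salivary gland markers, likewise all present, summed to 1170 to 1736 in Tfb1 RNAi males and 2330 to 2474 in controls on 1.0 M, and to 1777 to 2531 and 2431 to 3208 on 0.15 M, where alone the groups overlapped. The part of these markers in the differences of the 6 genes was not tested.

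FOXO, the transcription factor restrained by insulin signalling, was targeted in r4 females, as were p53, the stress-responsive tumour suppressor homologue, and Stat92E, which carries JAK/STAT signals to the nucleus. The 3 RNAi groups share the same 4 control libraries on each food. With FOXO RNAi, CG8256 and Lsd-1 were higher on 0.7 M. In the fit with no filter, 2 of 6 members were higher and none lower on 0.7 M. There 12.2% of all detected genes passed, and 26.8% of those that reached the filter. Medians were 0.32 for the members, 0.00 for all detected genes and -0.13 for those that reached the filter. On 0.15 M none passed in limma and 3 had an unadjusted p under 0.05. On that food 8.71% of all detected genes passed, and 17.3% of those that reached the filter, with medians of 0.02 for the members, 0.00 and 0.02.

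CG8256 had 4.87, 2.32, 5.75 and 2.72 in FOXO RNAi females on 0.7 M, against 1.0, 1.58, 1.27 and 0.529 in controls. On 0.15 M it had 0.769, 0.42, 0.688 and 1.02 in FOXO RNAi females, against 0.169, 0.178, 0.193 and 0.157 in controls. FOXO RNAi libraries were above control on both foods without overlap. Over all detected genes, the change of 1.19 ± 0.18 on 0.7 M passed (adjusted p = 2.5e-05) and that of 0.54 ± 0.18 on 0.15 M did not (0.060), except with a pseudocount of 0.1 (1.54, adjusted p = 0.0036), in a fit of the 2 groups alone (0.039), without FOXO RNAi library 2 (0.63, adjusted p = 0.024) or without the second library of every group (0.64, adjusted p = 0.035). The FOXO RNAi values on 0.7 M rest on about 95.5 to 207 fragments per library. Lsd-1 had 82.5, 75, 86.6 and 77.9 in FOXO RNAi females on 0.7 M, against 61.8, 45.6, 56 and 71.2 in controls, and all 4 RNAi libraries were higher. Its change of 0.47 ± 0.14 passed (0.011), but not without the second control library (0.35, adjusted p = 0.060) or in a fit of the 2 groups alone (0.093).

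CG31991 had 1.53, 1.78, 1.46 and 1.98 in FOXO RNAi females on 0.15 M, against 0.822, 0.737, 0.99 and 0.633 in controls. The groups did not overlap, but the change of 0.58 ± 0.20 did not pass over all detected genes (adjusted p = 0.065), except in a fit of the 2 groups alone (0.020) or without the second library of every group (0.55, adjusted p = 0.0037). On 0.7 M CG31991 averaged 1.58 ± 0.968 in FOXO RNAi females and 1.43 ± 0.7 in controls (SD, n = 4 each), with overlap. The second library was the highest of each group, at 2.98 and 2.45. Gpdh had 9.74, 3.74, 9.43 and 7.59 in FOXO RNAi females on 0.7 M, against 9.95, 7.48, 11.6 and 8.28 in controls, a difference of -0.31 ± 0.23 with overlapping groups. Lsd-2 and CG5295 overlapped control on both foods.

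Within FOXO RNAi females, 3 of 6 members were higher on 0.7 M than on 0.15 M with no filter (24.6% of all detected genes, 38.6% of those that reached the filter; medians 0.46 for the members and -0.02 for all detected genes). Gpdh rose by 1.45 ± 0.23 (adjusted p = 2.5e-05), CG8256 by 1.46 ± 0.18 (1.2e-06 over all detected genes, or 2.24 with a pseudocount of 0.1) and Lsd-1 by 0.57 ± 0.14 (0.0015). No member passed the limma test that the diet effect differed from that of controls, although 7.09% of all detected genes did (13.6% of those that reached the filter), and 3 had an unadjusted p under 0.05. These were CG8256, at 0.65 ± 0.26 (adjusted p = 0.13), Lsd-2, at 0.66 ± 0.26 (0.086 with the filter, 0.13 without) and CG5295, at 0.62 ± 0.21 (0.075). The CG8256 difference passed without FOXO RNAi library 2 on 0.7 M (0.82, adjusted p = 0.049). The Lsd-2 difference passed without FOXO RNAi library 2 on 0.15 M (0.81, adjusted p = 0.026), control library 4 on 0.7 M (0.84, adjusted p = 0.018) or FOXO RNAi library 4 on 0.7 M (0.81, adjusted p = 0.026). Fat body markers summed to 6413 to 7732 in FOXO RNAi females and 9397 to 13050 in controls on 0.7 M, and to 7753 to 9569 and 13870 to 14900 on 0.15 M. On 0.15 M the salivary gland markers summed to 86.7 to 133.2 in FOXO RNAi females and 156.3 to 561.8 in controls, without overlap, and the gut markers to 96.6 to 363.7 and 4.05 to 108.8, with overlap. Between foods within FOXO RNAi, the muscle markers summed to 28.5 to 54 on 0.7 M and 5.57 to 15.6 on 0.15 M, and the gut markers to 33.2 to 57.5 and 96.6 to 363.7, neither with overlap. The part of these markers in the results was not tested.

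With p53 RNAi, Gpdh and Lsd-2 were lower than control on 0.7 M, and no member passed the limma test on 0.15 M. In the fit with no filter, 2 of 6 members were lower and none higher on 0.7 M. There 2.99% of all detected genes passed, and 12.3% of those that reached the filter. Medians were -0.33 for the members, 0.00 for all detected genes and 0.01 for those that reached the filter. On 0.15 M none passed in limma and 1, CG5295, had an unadjusted p under 0.05 (-0.44 ± 0.16, adjusted p = 0.23). On that food 1.1% of all detected genes passed, and 2.14% of those that reached the filter, with medians of -0.27 for the members, -0.01 and 0.03. Gpdh had 4.13, 2.81, 3.66 and 4.83 in p53 RNAi females on 0.7 M, against 9.95, 7.48, 11.6 and 8.28 in controls, and fell by 1.09 ± 0.23 (adjusted p = 0.0036) without overlap. Lsd-2 had 3.58, 3.68, 3.82 and 2.92, against 7.44, 4.29, 5.8 and 10.1 in controls, and fell by 0.76 ± 0.18 (0.0088). Every p53 RNAi library was lower, yet the Lsd-2 call was lost without the fourth control library (-0.58, adjusted p = 0.058) and in a fit of the 2 groups alone (0.074).

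On 0.15 M Gpdh had 2.26, 2.21 and 2.91 in p53 RNAi females, against 3.04, 1.65, 3.78 and 1.39 in controls, whose range enclosed the RNAi libraries. Within p53 RNAi females, 1 of 6 members was higher and 1 was lower on 0.7 M than on 0.15 M with no filter, where 23.5% of all detected genes passed (38% of those that reached the filter; medians 0.39 for the members and -0.01 for all detected genes). CG8256 rose by 0.62 ± 0.20 (adjusted p = 0.025 over all detected genes, or 1.67 with a pseudocount of 0.1) and Lsd-2 fell by 1.01 ± 0.20 (0.00052). The CG8256 call was lost without any single library on 0.15 M or library 4 on 0.7 M (adjusted p up to 0.081, change 0.53, in the last case). CG31991 changed by 0.53 ± 0.21 without passing (0.069), except with a pseudocount of 0.1 (1.18, adjusted p = 0.018), in a fit of the 2 groups alone (0.032) or without the second library of every group (0.37, adjusted p = 0.038). The Gpdh change of 0.48 ± 0.25 did not pass (0.14), except in a fit of the 2 groups alone (0.040). No member passed the limma test of a different diet effect from controls, against 0.102% of all detected genes and 0.278% of those that reached the filter, and 1 member, Gpdh, had an unadjusted p under 0.05 (-1.14 ± 0.35, unadjusted p = 0.0029, adjusted p = 0.30).

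With Stat92E RNAi, compared with the same controls, Gpdh and Lsd-2 were lower on 0.7 M as well. In the fit with no filter, 2 of 6 members were lower and none higher on 0.7 M. There 3.63% of all detected genes passed, and 13.1% of those that reached the filter. Medians were -0.48 for the members, 0.00 for all detected genes and 0.05 for those that reached the filter. On 0.15 M none passed in limma, against 5.96% of all detected genes and 3.09% of those that reached the filter. There 2 had an unadjusted p under 0.05, Lsd-2 (-0.54 ± 0.18, adjusted p = 0.077) and CG5295 (-0.42 ± 0.15, adjusted p = 0.084). Gpdh had 3.9, 2.7, 3.24 and 5.64 in Stat92E RNAi females on 0.7 M, against 9.95, 7.48, 11.6 and 8.28 in controls, and fell by 1.103 ± 0.23 (0.0046) without overlap. On 0.15 M it had 2.44, 2.38, 3.2 and 2.38 in Stat92E RNAi females, inside the range of 1.39 to 3.78 in controls. Lsd-2 had 3.34, 3.43, 3.93 and 3.16 on 0.7 M, against 7.44, 4.29, 5.8 and 10.1 in controls, and fell by 0.77 ± 0.18 (0.0097). All 4 RNAi libraries were lower, and the call was lost without the fourth control library (-0.59, adjusted p = 0.053) and in a fit of the 2 groups alone (0.070).

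Within Stat92E RNAi females, 1 of 6 members with no filter, Lsd-2, differed between foods, where 16.6% of all detected genes passed (35.9% of those that reached the filter; medians 0.07 for the members and -0.01 for all detected genes). It fell by 0.89 ± 0.18 on 0.7 M (adjusted p = 0.00058 with the filter). Gpdh changed by 0.41 ± 0.23 (0.18). No member passed the limma test of a different diet effect from controls, against 0.142% of all detected genes and 0.238% of those that reached the filter, and 2 had an unadjusted p under 0.05. These were Gpdh, at -1.21 ± 0.33 (adjusted p = 0.10, and 0.041 with a difference of -1.37 without Stat92E RNAi library 4 on 0.7 M), and CG31991, at -0.58 ± 0.28 (adjusted p = 0.38 over all detected genes).

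CG5295 stayed under the filter in the r4 60100 experiment and was tested alone. It had 0.462, 0.369, 0.487 and 0.385 in p53 RNAi females, 0.271, 0.389, 0.387 and 0.316 in Stat92E RNAi females and 0.952, 0.488, 0.828 and 1.47 in controls on 0.7 M. On 0.15 M it had 0.729, 0.543 and 0.83 with p53 RNAi, 0.687, 0.898, 0.644 and 0.628 with Stat92E RNAi and 1.28, 1.38, 1.04 and 1.51 in controls. Every p53 and Stat92E RNAi library was below every control library on its food, though on 0.7 M p53 RNAi reached 0.487 and controls went down to 0.488. Differences were -0.42 and -0.44 for p53 RNAi on 0.7 M and 0.15 M, and -0.51 and -0.42 for Stat92E RNAi, each with an exact two-sided permutation p of 0.029, the smallest that these group sizes allow, and 0.072 after adjustment. It was also lower on 0.7 M than on 0.15 M within p53 RNAi (-0.25) and Stat92E RNAi females (-0.35), with the same p and no overlap. Controls changed by -0.27 and overlapped between foods (exact permutation p = 0.14). The diet effect differed from that of controls by 0.02 ± 0.22 with p53 RNAi and by -0.08 ± 0.21 with Stat92E RNAi. Neither difference passed in limma with no filter. FOXO RNAi libraries overlapped control on 0.7 M (0.30, exact permutation p = 0.29) and on 0.15 M (-0.32, exact permutation p = 0.11).

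**Figure D4:**
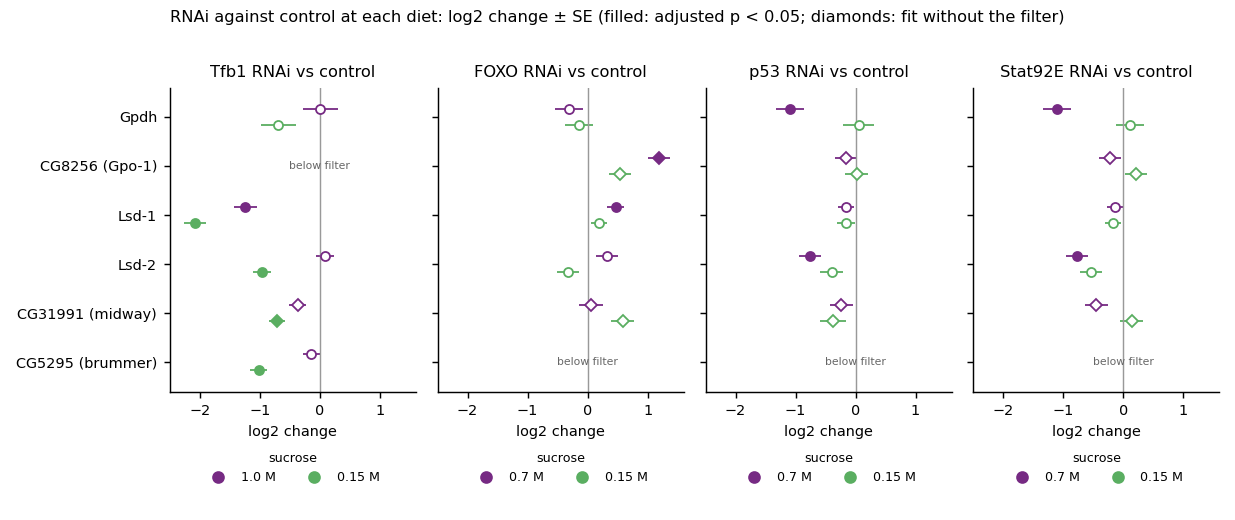
Log2 change of each gene in RNAi relative to control fat bodies on each food (limma, ± SE); filled points passed adjusted p under 0.05, purple marks the high-sugar food and green 0.15 M, and "below filter" marks a gene tested on its own, and diamonds (CG8256 and CG31991) are from the fit with no filter. Lsd-1 lay at -1.24 and -2.09 with Tfb1 RNAi, CG8256 at 1.19 and 0.54 with FOXO RNAi, and Gpdh at -1.09 and -1.103 on 0.7 M with p53 and Stat92E RNAi.

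Summed fat body markers on 0.7 M were 6719 to 8047 in p53 RNAi females, 7692 to 10330 in Stat92E RNAi females and 9397 to 13050 in controls, and on 0.15 M 9332 to 11550, 12240 to 12640 and 13870 to 14900. On 0.7 M, muscle markers summed to between 33 and 52.1 with p53 RNAi, between 33.1 and 60.8 with Stat92E RNAi and between 20.1 and 68.2 in controls. On 0.15 M they summed to between 12 and 14.2 with p53 RNAi, between 13.3 and 30.4 with Stat92E RNAi and between 9.34 and 15.96 in controls, so that the muscle markers were higher on 0.7 M without overlap in all 3 genotypes. The part of these markers in the Gpdh, Lsd-2 and CG5295 results was not tested.

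The order of the groups differed between genes in the r4 60100 experiment. Mean Gpdh was 9.33 ± 1.83 in controls on 0.7 M, then 7.63 ± 2.76 with FOXO RNAi, 3.87 ± 1.28 with Stat92E RNAi and 3.86 ± 0.848 with p53 RNAi on that food. All 4 groups on 0.15 M followed, between 2.05 ± 0.604 and 2.6 ± 0.404, and each group in this order overlapped the next. Mean CG8256 was 3.91 ± 1.66 with FOXO RNAi on 0.7 M, apart from all others, then 1.09 ± 0.445 in controls, 0.845 ± 0.257 with p53 RNAi and 0.778 ± 0.332 with Stat92E RNAi on 0.7 M, which overlapped. FOXO RNAi on 0.15 M, at 0.725 ± 0.249, overlapped these 3 high-sugar groups. Stat92E RNAi on 0.15 M followed at 0.361 ± 0.16, above its controls without overlap though the change of 0.21 ± 0.18 did not pass (adjusted p = 0.53), and p53 RNAi and controls on 0.15 M were lowest, at 0.191 ± 0.0357 and 0.174 ± 0.0153, and overlapped. Mean Lsd-2 was highest in controls on 0.15 M, at 11.0 ± 1.43, and lowest with p53 and Stat92E RNAi on 0.7 M, at 3.5 ± 0.399 and 3.47 ± 0.331, which overlapped each other and no other group. FOXO RNAi averaged 8.76 ± 2.2 on 0.7 M and 8.63 ± 2.16 on 0.15 M, p53 RNAi 8.11 ± 1.44 and Stat92E RNAi 7.28 ± 1.07 on 0.15 M, and controls 6.9 ± 2.48 on 0.7 M, all overlapping their neighbours.

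Mean Lsd-1 was highest with FOXO RNAi on 0.7 M, at 80.5 ± 5.12, apart from all other groups. Controls on 0.7 M (58.7 ± 10.7), FOXO RNAi on 0.15 M (53.7 ± 1.67), Stat92E and p53 RNAi on 0.7 M (52.6 ± 6.82 and 52.5 ± 10.2), controls on 0.15 M (47.5 ± 6.28) and p53 and Stat92E RNAi on 0.15 M (42.1 ± 3.74 and 41.8 ± 0.551) followed, each overlapping the next. Mean CG31991 ran from 1.69 ± 0.237 with FOXO RNAi on 0.15 M down to 0.387 ± 0.081 with p53 RNAi on 0.15 M. The p53 RNAi libraries on 0.15 M, at 0.418, 0.295 and 0.448, lay below all others of the experiment, but the change of -0.37 ± 0.21 from controls did not pass (adjusted p = 0.44). The groups between, from FOXO RNAi on 0.7 M (1.58 ± 0.968) and controls on 0.7 M (1.43 ± 0.7) to Stat92E RNAi on 0.7 M (0.739 ± 0.207), overlapped their neighbours. Mean CG5295 ran from 1.41 ± 0.692 with FOXO RNAi on 0.7 M and 1.3 ± 0.197 in controls on 0.15 M down to 0.426 ± 0.0579 with p53 RNAi and 0.341 ± 0.0575 with Stat92E RNAi on 0.7 M.

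Ratios of genes within a library depend on its scaling only through the 1 added to each value, so 3 were compared. The log2 ratio of Lsd-1 to Lsd-2 was higher on high sugar than on 0.15 M in the controls of all 4 experiments, without overlap. It averaged 2.95 on 0.7 M and 2.01 on 0.15 M in r4 60100 controls, a difference of 0.94 (exact two-sided permutation p = 0.029), and 1.44 and 0.16 in cg females, a difference of 1.28 (exact permutation p = 0.10). In r4 w1118 females it averaged 1.48, 2.38, 2.45 and 2.04 on 0.15, 0.3, 0.7 and 1.0 M. In cg male controls it averaged 1.52 on 1.0 M and 1.24 on 0.15 M, and the groups nearly touched at 1.33. With Tfb1 RNAi the ratio was below control on both foods, at 0.19 and 1.52 on 1.0 M and 0.12 and 1.24 on 0.15 M. With Stat92E RNAi on 0.7 M it was above control, at 3.58 and 2.95 (exact permutation p = 0.029). None of the 42 ratio tests passed after adjustment, and the lowest adjusted p was 0.14.

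**Figure D5:**
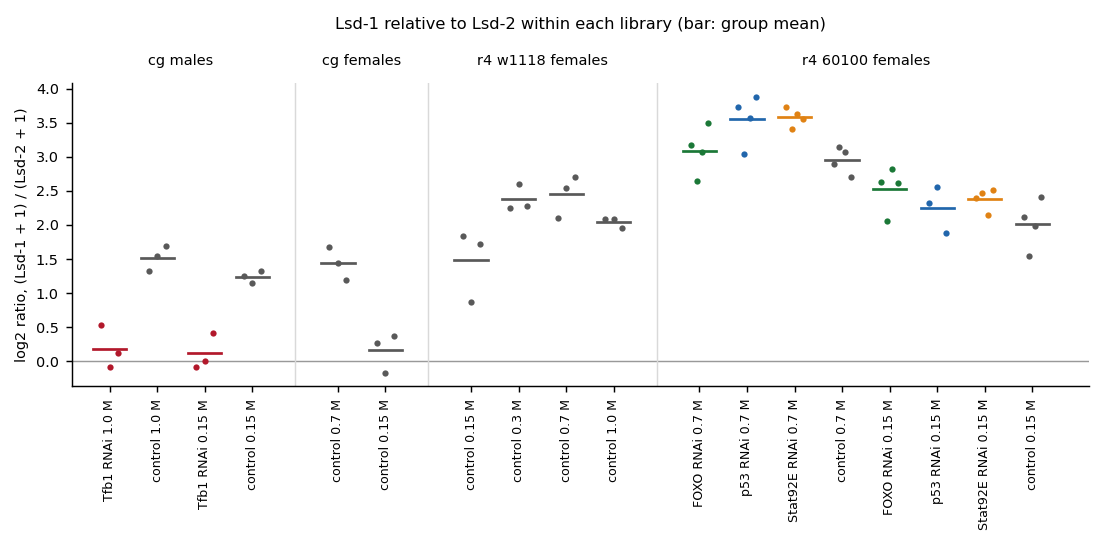
Log2 ratio of Lsd-1 to Lsd-2 within each library (each value plus 1), by group; points are libraries, bars are group means, and 0 marks equal levels. Control libraries on high sugar sit above those on 0.15 M in each experiment, and Tfb1 RNAi libraries average 0.19 and 0.12 against 1.52 and 1.24 in their controls on 1.0 M and 0.15 M.

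The log2 ratio of Gpdh to CG8256 was 0.81 with FOXO RNAi and 2.31 in controls on 0.7 M (difference -1.51, or -2.1 with a pseudocount of 0.1, exact two-sided permutation p = 0.029). It was 1.39 with p53 RNAi and 1.44 with Stat92E RNAi on that food, each below the same controls (exact permutation p = 0.029, or 0.086 with a pseudocount of 0.1). Its diet difference was 0.73 in cg male controls and 0.81 in r4 60100 controls, and turned to -0.74 and -0.067 with a pseudocount of 0.1. The log2 ratio of CG31991 to CG5295 was higher on 0.7 M than on 0.15 M in cg females (-0.22 and -0.79), and higher with FOXO RNAi than in controls on 0.15 M (0.55 and -0.36), in both cases without overlap. On 1.0 M in r4 w1118 females it equalled that on 0.15 M within the spread (-0.71 and -0.72).

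Further genes of the same pathway were taken from lists, of which 7 supply glycerol 3-phosphate, 12 assemble glycerolipids, 6 are lipid droplet genes and 5 act in lipolysis, and few of them reached the filter. Counts over those that did are read beside the share of all genes past the filter that were called in either direction. Some of these genes, CG17608 and CG2254 among them, averaged under 1 in a group and passed with the help of their higher groups. Counts and p-values of list genes are from the fit with the filter, so for such genes they are not a fair test. In cg females, where that share was 39.7%, both tested supply genes, both assembly genes, 2 of 3 droplet genes and both lipolysis genes were higher on 0.7 M. In cg male controls (28.3%) 1 of 3 supply genes was higher and 2 were lower on 1.0 M, 1 of 4 assembly genes was higher, 1 of 2 droplet genes was lower, and none of 4 lipolysis genes passed. In r4 60100 controls (31.1%) 1 of 5 assembly genes was higher on 0.7 M, 2 of 3 lipolysis genes were higher and 1 was lower, and none of 4 supply or 3 droplet genes passed. In r4 w1118 females on 0.3 M (7.72%), 1 of 3 supply and 1 of 2 lipolysis genes were higher and none of 5 assembly or 3 droplet genes passed, and on 0.7 M (14.3%) 1 of 3 supply, 1 of 5 assembly and 1 of 2 lipolysis genes were higher and none of 3 droplet genes passed. On 1.0 M (17.2%), 2 of 3 supply, 1 of 5 assembly, none of 3 droplet and 1 of 2 lipolysis genes were higher.

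CG17608, a member of the acylglycerol-phosphate acyltransferase family, averaged 2.6 on 0.7 M and 0.54 on 0.15 M in r4 60100 controls, a change of 1.24 ± 0.13 (adjusted p = 2.5e-07). This p-value is from the fit with the filter, which the gene passed with the help of its higher groups, so the test is not a fair one. CG17608 also rose in cg males on 1.0 M (0.78 ± 0.14) and in r4 w1118 females on 0.7 M (0.92 ± 0.17) and 1.0 M (1.62 ± 0.17). AkhR, the receptor of the fat-mobilising adipokinetic hormone, listed in the table as GRHR, rose in 5 of the 6 control comparisons, by 0.42 to 1.39, and by 0.28 ± 0.13 without passing in cg males. Tpi, triose phosphate isomerase, fell by 1.15 ± 0.15 in cg males (2.81 on 1.0 M and 7.43 on 0.15 M, adjusted p = 0.00028) and rose by 0.76 ± 0.14 in cg females (6.21 on 0.7 M and 3.27 on 0.15 M, adjusted p = 0.0077). It also rose in r4 w1118 females by 0.94 ± 0.19 on 0.3 M (0.027) and 0.66 ± 0.19 on 1.0 M (0.040). Gyk, a glycerol kinase, rose by 0.73 ± 0.24 in cg males (adjusted p = 0.048) and in r4 w1118 females by 0.53 ± 0.14 on 0.7 M (0.035) and 0.70 ± 0.14 on 1.0 M (0.0079). Some of these calls rested on single libraries. The AkhR call on 0.3 M was lost in 7 of 11 settings (adjusted p up to 0.17, change 0.43, without 0.3 M library 3), among them without any single 0.15 M library or 0.3 M library 2. The Gyk call in cg males was lost in 8 of 11, without any single library but the first on 0.15 M among them (up to 0.14, change 0.51, without the second on 0.15 M). On 0.7 M in r4 w1118 females it was lost in 5 of 11, without 0.15 M library 1 or 2 or 0.7 M library 2 or 3 among them (up to 0.12, change 0.45, in the last case). The Tpi call in these females was lost in 5 of 11 settings on 0.3 M, without 0.15 M library 1 or 3 or 0.3 M library 2 or 3 among them (up to 0.12, change 0.82, in the last case). On 1.0 M it was lost in 7 of 11, without 0.15 M library 1 or 3 or 1.0 M library 1 or 2 among them (up to 0.15, change 0.50, without 0.15 M library 1).

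The same shares are given for the RNAi comparisons. With Tfb1 RNAi on 1.0 M (24.1%), none of 3 supply or 4 assembly genes passed, 1 of 2 droplet genes was lower, and of 4 lipolysis genes 1 was higher and 1 lower. On 0.15 M (36.2%), 1 of 3 supply genes was higher and 2 were lower, 2 of 4 assembly genes and 1 of 2 droplet genes were lower, and of 4 lipolysis genes 1 was higher and 2 lower. With FOXO RNAi on 0.7 M (26.8%), 1 of 4 supply genes was higher, 2 of 5 assembly genes were higher and 2 lower, and 1 of 3 droplet and 1 of 3 lipolysis genes were higher. On 0.15 M (17.3%), 1 of 4 supply and 1 of 3 lipolysis genes were lower, 1 of 3 droplet genes was higher and none of 5 assembly genes passed. With p53 RNAi on 0.7 M (12.3%), 1 of 4 supply and 3 of 5 assembly genes were lower and 1 of 3 lipolysis genes was higher, and on 0.15 M (2.14%) none passed in limma. With Stat92E RNAi on 0.7 M (13.1%), 1 of 4 supply, 2 of 5 assembly and 1 of 3 lipolysis genes were lower, and on 0.15 M (3.09%) 1 of 5 assembly genes was lower.

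In the RNAi comparisons, CG2254, a short-chain dehydrogenase of lipid droplets, was lower with Tfb1 RNAi, at 0.216 against 0.991 in controls on 1.0 M (-0.69 ± 0.15, adjusted p = 0.0062) and 0.505 against 5.58 on 0.15 M (-2.12 ± 0.15, adjusted p = 2.1e-06). With FOXO RNAi it was higher on 0.7 M, at 13.7 against 4.46 in controls (1.40 ± 0.14, adjusted p = 1.3e-08). CG1882, the homologue of the lipase coactivator CGI-58, was also higher there, at 5.55 against 2.5 (0.91 ± 0.10, adjusted p = 5.7e-08), and was higher with Tfb1 RNAi on 1.0 M, at 2.3 against 0.528 (1.11 ± 0.16, adjusted p = 0.00058). CG5966, of the lipase family, was lower on 0.15 M with Tfb1 RNAi, at 1.76 against 9.59 (-1.95 ± 0.18, adjusted p = 1.5e-05), and with FOXO RNAi, at 3.51 against 10.5 (-1.35 ± 0.26, adjusted p = 0.00088). These p-values are from the fit with the filter. In cg males CG2254 passed the filter only through the controls on 0.15 M, and CG1882 averaged under 1 in controls on 1.0 M. For these 2 genes the tests in males are therefore not fair ones.

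On 0.7 M, CG17608 was lower with p53 RNAi, at 1.33 against 2.6 in controls (-0.63 ± 0.13, adjusted p = 0.0030), and with Stat92E RNAi, at 1.15 against 2.6 (adjusted p = 0.0011). The aldolase gene Ald averaged 12.6 with p53 RNAi, 13.1 with Stat92E RNAi and 23.5 in controls on 0.7 M, changes of -0.85 ± 0.26 and -0.76 ± 0.26 (adjusted p = 0.032 and 0.049). It was also lower with FOXO RNAi on 0.15 M, at 11.2 against 21.2 (-0.87 ± 0.26, adjusted p = 0.019), a call lost without control library 1 or 3 (-0.81 and -0.79, adjusted p = 0.053 and 0.056). The p53 RNAi call of Ald was lost in 6 of 13 settings, control libraries 1, 3 and 4 and p53 RNAi library 2 left out among them (adjusted p up to 0.14, change -0.60, in the last case). The Stat92E RNAi call of Ald was lost in 11 of 13, any library but the second control left out among them (up to 0.14, change -0.67, without the first control). CG8709, the lipin gene, averaged 0.693 with Stat92E RNAi and 1.28 in controls on 0.15 M (-0.43 ± 0.12, adjusted p = 0.046), lost in 9 of 13 settings, each of the 8 libraries left out among them (up to 0.11, change -0.39, without the second control). It too passed the filter with the help of its higher groups, so the same limit holds.

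Likeness of pattern was described over the 18 group means, each centred on its experiment, among 1552 genes that passed the filter in every experiment. The genes most like Gpdh were desat1, the stearoyl-CoA desaturase (r = 0.961), fbl, a pantothenate kinase (0.937) and AcCoAS, an acetyl-CoA synthetase (0.934). Those most like CG8256 were CG5853 (0.933), CG30344 (0.895) and CG17224 (0.868), and those most like Lsd-1 were alpha-Est2 (0.932), CG13360 (0.928) and CG7970 (0.888). Lsd-2 was most like TSG101 (0.915), Hmu (0.903) and Rho1 (0.891), CG31991 most like CG3625 (0.884), RpL5 (0.868) and CG10343 (0.857), and CG5295 most like CG3523, a fatty acid synthase (0.849), l(1)G0334 (0.826) and CG14767 (0.813). Among the members themselves, CG31991 and Lsd-1 (0.782), Gpdh and CG8256 (0.769) and CG5295 and Lsd-2 (0.698) varied together most closely, whereas Lsd-2 showed almost no relation to Gpdh (-0.063) or CG8256 (-0.061), and the perilipins were loosely related (0.292). The group means share libraries, diets and controls, so these values are descriptions without a test.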

How the data were processed

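The authors deposited 1 table of FPKM values per gene and library. Per the submitters' processing notes, TopHat 1.3.2, Bowtie 0.12.7 and Cufflinks 1.1.0 were used with build dm3; the rescaling of the values is not given in the sources used here. Of 61 columns, 18 matched a sample title and 43 only a group, where library numbers follow column order. Nothing was averaged before testing, and no columns were identical. Values were analysed as log2(FPKM + 1) with limma 3.58.1 in R 4.3.3 (moderated test with an intensity trend, 1 mean per group, each experiment fitted apart), on genes that averaged 1 or more over an experiment's libraries, with Benjamini-Hochberg adjustment over all genes tested and a threshold of 0.05. The procedure was checked on simulated data. A fit over every detected gene, with no filter, gave the counts and medians over the 6 members and the values of CG8256 and CG31991, which averaged under 1 in some groups; this use of it was decided after the data were seen. Members under the filter and ratios were tested by exact two-sided permutation (scipy 1.17.1). Fragments behind a value were estimated from the lower edge (5th percentile) of value times transcript length, with lengths found for 13631 genes. Intervals for single values were not computed, since depth is only estimated.

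The members and gene lists were chosen with earlier results of these data known. Named were the 6 members, the targeted genes, up to 4 genes per list called in at least 3 of 6 control diet comparisons, up to 2 per RNAi comparison with the largest change, and the 3 genes most like each member. No lipid droplet gene met the diet rule, and no list gene was called with p53 RNAi on 0.15 M. Replicate numbers did not pair the samples: same-numbered libraries had a median correlation of deviations of 0.024 in cg males, -0.041 in cg females and -0.002 in r4 w1118 females. Alternatives were a pseudocount of 0.1, no filter, median-ratio rescaling, a fit of the compared groups alone, the replicate block, each library left out and, added after seeing the data, the second library of every r4 60100 group left out.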

Additional observations from a re-analysis of the deposited data

Results flagged for a closer look

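Among 42 tests for a library far from the 3 others of its group, 2 passed Dixon's 95% critical value, and chance gives about 1 in 20. Gpdh was 3.2 in the third Stat92E RNAi library on 0.15 M, against 2.38 to 2.44 in the others. Lsd-1 was 37.3 in the second p53 RNAi library on 0.7 M, against 56.4 to 59.5 in the others. In cg males the diet effect differed between Tfb1 RNAi and control for Lsd-2 by 1.05 and for CG5295 by 0.88, both in limma after adjustment over all genes past the filter (CG5295 missed the threshold without it).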

How the results depend on the processing

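Of 43 called changes of members, 30 stayed past the threshold under every alternative tried, 13 were lost under at least 1, and none changed sign. Counts of members called in this section are from the fit with the filter, unless no filter is named. They include calls of CG8256 and CG31991, whose tests in that fit are not fair ones. Both calls for FOXO RNAi on 0.15 M were of these genes. Counts with libraries left out were not made for the fit with no filter. With no filter the count was 1 for the Tfb1 interaction (2 with it) and 0 for FOXO RNAi on 0.15 M (2). With only the groups compared it was 0 for r4 w1118 females on 0.3 M (3) and 1 each for FOXO, p53 and Stat92E RNAi on 0.7 M (2 each). For the diet effect within Stat92E RNAi it was 2 (1 as fitted) with a pseudocount of 0.1, with median-ratio rescaling and without the second libraries, which also gave 1 for the FOXO interaction (0).

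Leaving out 1 library at a time gave 2 to 3 members for diet in cg male controls, 4 for Tfb1 RNAi on 0.15 M, 1 to 2 on 1.0 M, 2 for diet within Tfb1 RNAi, 1 to 3 for its interaction and 3 in cg females. In r4 w1118 females it gave 0 to 3, 2 to 3 and 3 to 4 on 0.3, 0.7 and 1.0 M, and 3 to 4 for the trend. In r4 60100 females it gave 3 for diet in controls; 0 to 1, 1 to 3, 3 and 0 to 2 for FOXO RNAi (0.15 M, 0.7 M, diet, interaction); 0, 1 to 2, 1 to 3 and 0 for p53 RNAi; and 0, 1 to 2, 1 to 2 and 0 to 1 for Stat92E RNAi.

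With the replicate block the counts were 2 for diet in cg male controls, 4, 1, 2 and 2 for Tfb1 RNAi (0.15 M, 1.0 M, diet, interaction), 3 in cg females, and 2, 3, 3 and 3 in r4 w1118 females (0.3, 0.7, 1.0 M, trend). The calls not shared were Gpdh on 0.3 M (0.057), Lsd-1 on 1.0 M (0.059) and the CG5295 trend (0.058). No paired analysis was run for the r4 60100 females, because only the p53 RNAi columns on 0.15 M carry replicate numbers. Whether column order pairs the other libraries is not stated and was not tested. The library second in column order was the one least like its group mates in 7 of the 8 groups. The log2 ratio of Gpdh to CG8256 between diets turned sign with a pseudocount of 0.1, to -0.74 (0.73 as reported) in cg male controls and -0.067 (0.81) in r4 60100 controls; CG8256 was at or near 0 on 0.15 M there. Depth limits CG8256 on 0.15 M. Promoter sequences were not used here.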
